A study of Oryza sativa with 72 samples.

Results

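Leaves of droughted rice were compared 2 h after watering resumed with leaves taken on day 6 of the drought. The comparison held 12 of the 72 libraries of the series, chosen by their labels alone: 3 treated libraries of each of the 2 stages, in the latest leaf and in the second latest leaf. The 12 control libraries of the same stages and leaves gave the background. Every line of the deposited table of 55986 lines entered, of which 19718 in the latest leaf and 19926 in the second latest leaf had enough counts to be tested.

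All plants were Oryza sativa cultivar IR64, an indica rice grown widely in irrigated fields, in a growth chamber and in single pots of calcined clay fed from below by a hose. From 14 days after sowing, treated plants went through a severe drought of 9 days, in which the pots were raised above the hose so that they drained, followed by 6 days of watering. Control plants carried the same genotype and stayed irrigated. The 4 groups in each leaf position were therefore treated plants at drought day 6, treated plants 2 h after the end of the drought, and irrigated plants at each of these times. The latest leaf was the youngest that had fully expanded, and the labels do not say whether it was the same leaf of the plant at both times. Rewatered leaves had been through 3 more days of drought than the day 6 leaves in addition to 2 h of water, and the contributions of these cannot be told apart in this comparison. The hour of sampling was not given in the sources used here.

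When soil dries, roots and leaves of rice raise abscisic acid, stomata close, growth slows, and genes for protective proteins, osmolyte synthesis and detoxification are induced. On rewatering, leaf water potential and turgor recover quickly, abscisic acid is broken down, and photosynthesis and growth resume over a longer time. In many plants the first hours after rewatering hold a transcript response of their own, in which some drought-induced genes fall back and other genes rise for a short time. Whole leaves were sequenced here, so a smaller share of a cell type and less transcript per cell cannot be told apart.

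Lines of the table carry no gene identifier, and the files do not pair them with genes. Each line is called a feature, and 4 are named below by their place in the table. No gene group could be described and no cell type marker could be checked.

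Total counts in the 12 treated libraries lay between 9787155 and 17353730, and in all 24 libraries between 6370914 and 23026735. Between 23964 and 28129 features had at least 1 count in a library, and the 10 most abundant took 7.60 to 12.7% of its counts. A count of 0 allows up to 3 counts, which equals 0.130 to 0.471 CPM of the raw library total, for counting error only. CPM elsewhere is the count relative to the TMM-scaled size of its library. Replicates are numbered in the labels without a statement that they were different plants. P-values therefore reflect only library-to-library spread, part of which may be technical.

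The 6 rewatered treated libraries stood apart from all 18 others. On the first principal component of log2 CPM, which held 23.9% of the variance, they scored 38.2 to 70.7. The other libraries scored -30.4 to 4.74, and treated day 6 leaves overlapped there with the irrigated ones. The library nearest to the rest on the rewatered side was replicate 3 of the latest leaf, at 38.2. On the other side it was drought day 6 replicate 3 of the second latest leaf, at 4.74. On the third component treated day 6 leaves scored below all irrigated ones of the same leaf position. They had -55.0 to -29.9 against -7.74 to 31.6 in the latest leaf, and -29.2 to -4.74 against 9.88 to 47.2 in the second latest leaf.

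**Figure D1:**
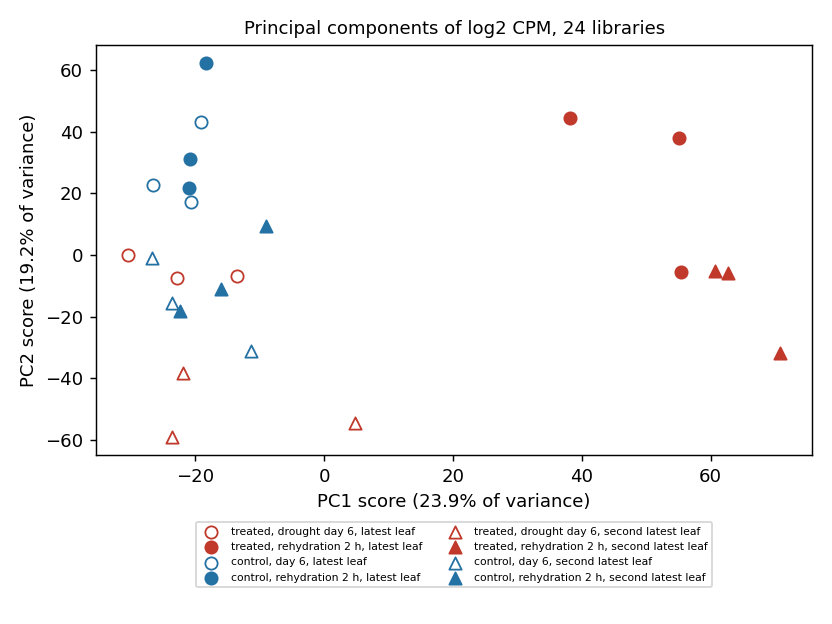
Scores of 24 libraries on the first 2 principal components of log2 CPM, with treated plants in red, controls in blue, day 6 as open symbols, 2 h as filled symbols, circles for the latest leaf and triangles for the second latest leaf. The 6 rewatered treated libraries score 38.2 to 70.7 on the first component and every other library scores 4.74 or less.

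In the latest leaf, 5298 features changed between drought day 6 and 2 h of rewatering, which was 26.9% of those tested (edgeR's quasi-likelihood test, Benjamini-Hochberg adjusted p under 0.05, 3 libraries against 3). Of these, 2741 rose (13.9%) and 2557 fell (13%). The median log2 fold change was 0.75 among those that rose and -0.66 among those that fell, while it was -0.04 over all tested features. Most changes were small. At least 2-fold changes were fitted for 836 of the features that rose and 623 of those that fell, at least 8-fold changes for 44 and 39, and at least 16-fold changes for 19 and 12. Leaving out the rewatered replicate 2 lowered the count to 3522, the lowest of any single library left out.

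A similar number, 5267 features, changed in the second latest leaf (26.4% of those tested). Of these, 2938 rose (14.7%) with a median log2 fold change of 0.79, and 2329 fell (11.7%) with a median of -0.75. At least 2-fold changes were fitted for 980 and 738 of them, at least 8-fold for 46 and 48, and at least 16-fold for 20 and 16. Without drought day 6 replicate 1 the count was 3483.

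Irrigated plants of the same 2 stages gave 0 calls among the same features in the latest leaf (0%) and 0 in the second latest leaf (0%) by edgeR. DESeq2 called 35 and 53 of them. An unadjusted edgeR p under 0.05 was reached by 1626 of 19718 features in the latest leaf and 1197 of 19926 in the second latest leaf. In edgeR without the low-count filter the controls gave 601 calls among 36199 features and 478 among 37442. Of these calls, 18 and 35 were features that the filter removes. The smallest adjusted p in edgeR was 0.150 and 0.0752. Standard errors were alike in the treated and the control comparisons, with a median of 0.18 against 0.18 log2 units in the latest leaf and 0.19 against 0.19 in the second latest leaf. The spread between replicates was of one size too, with a root mean square SD of log2 CPM of 0.327 at day 6 and 0.345 at 2 h in treated latest leaves and of 0.373 and 0.340 in treated second latest leaves. Irrigated leaves had 0.328 to 0.405.

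The features that changed in treated plants had a median control change close to 0. Over the features that rose in the treated latest leaf, the median control log2 fold change was -0.02, with quartiles of -0.13 and 0.09, and 44.2% of them had a positive control change against 50.1% of all tested features. Over those that fell it was -0.01, and 51.4% had a negative control change against 49.9% of all. Medians in the second latest leaf were -0.04 over the features that rose and 0.01 over those that fell. Across all tested features the treated and the control changes, which share no library, correlated with Pearson r = 0.081 over 19718 features in the latest leaf and 0.063 over 19926 in the second latest leaf. Spearman's rho was 0.017 and -0.039, of opposite sign in the 2 leaves. Features are not independent replicates, so no p is given for these.

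The share of all counts that went to these features changed with them. Features called higher in the latest leaf took 15.8% ± 1.01 of its counts at drought day 6 and 27.0% ± 1.70 at 2 h (SD, n = 3). Those called lower took 18.2% ± 0.820 and then 10.3% ± 0.895. These shares belong to the libraries that chose the features, and are given as a description. Libraries of the second latest leaf did not choose those lists. Same-numbered leaves deviate together, however, so these libraries are not fully independent of the choice. In the second latest leaf the features called higher in the latest leaf took 16.3 to 20.1% of the counts at day 6 and 29.1 to 30.1% at 2 h. The groups did not overlap. The features called lower in the latest leaf took 17.6 to 20.9% at day 6 and 10.4 to 10.7% at 2 h. The shares in irrigated second latest leaves were 16.4 to 19.9% at day 6 and 17.3 to 18.8% at 2 h for the first list, and 15.5 to 16.4% and 14.7 to 17.4% for the second. The reverse reading gave the same order. Features called higher in the second latest leaf took 16.9 to 19.3% of latest leaf counts at day 6 and 28.6 to 31.3% at 2 h, and those called lower took 14.4 to 16.0% and then 7.75 to 9.25%. Irrigated latest leaves had 21.2 to 21.6% at day 6 and 20.1 to 23.6% at 2 h for the higher list. For the lower list they had 10.5 to 12.7% and 10.5 to 13.2%. Treated latest leaves were thus outside the irrigated range at day 6, and on its other side at 2 h, for both lists.

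The 100 most abundant features of the treated latest leaf took 27.1% ± 1.29 of the counts at day 6 and 27.8% ± 2.57 at 2 h, which differed by less than the spread. Among them 20 rose and 11 fell, beside 13.9% and 13% of all tested features. Of the second latest leaf's 100, 22 rose and 8 fell, beside 14.7% and 11.7% of all, and their share was 23.0% ± 1.66 and then 24.7% ± 0.997. Calls depended on level, so all tested features are not a like background for these 100. In the highest of 5 equal groups by level, 41.9% of features in the latest leaf were called in either direction. The second latest leaf had 40.4%. The counts above therefore show no excess among the most abundant features.

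More changes were called where counts were higher. With the tested features of the latest leaf sorted into 5 equal groups by level, 8.54% were called in the lowest group, at a median of 1.16 CPM, and 41.9% in the highest, at a median of 88.2 CPM. Their balance differed too: 119 rose and 218 fell in the lowest group, while 1013 rose and 639 fell in the highest. The second latest leaf had 9.13% and 40.4%, with 125 higher and 239 lower in its lowest group and 1068 higher and 542 lower in its highest. The median standard error fell from 0.43 to 0.11 log2 units between these groups in the latest leaf and from 0.44 to 0.13 in the second latest leaf. The median size of a called change was 1.51 log2 units in the lowest group of either leaf, and 0.61 and 0.67 in the highest.

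Most features called in 1 leaf position were called in the other. Of the features that rose, 2266 did so in both leaves, which was 82.7% of the latest leaf's list and 77.1% of the second latest leaf's. Of those that fell, 1554 did so in both, 60.8% and 66.7% of the lists. None was called in one direction in one leaf and in the opposite direction in the other (0 and 0). Features called in both rose by a median of 0.79 log2 units in the latest and 0.84 in the second latest leaf, and those that fell in both had medians of -0.71 and -0.76.

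Features called in 1 leaf only mostly had the same sign in the other. This held for 455 of the 464 called higher in the latest leaf only and tested in both, whose medians were 0.51 there and 0.35 in the second latest leaf. It held for 655 of the 664 called higher in the second latest leaf only. Among features called lower it held for 960 of 982 and for 720 of 740. The same-sign share over all features tested in both leaves is not given here. How these counts compare with that share therefore cannot be read from them. Over the 19346 features tested in both leaves the treated changes correlated with Pearson r = 0.85 and Spearman rho = 0.82, and the control changes with r = 0.43 and rho = 0.39. Same-numbered libraries of the 2 leaf positions deviated together, so the leaves are not independent of each other, which applies to both values.

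**Figure D2:**
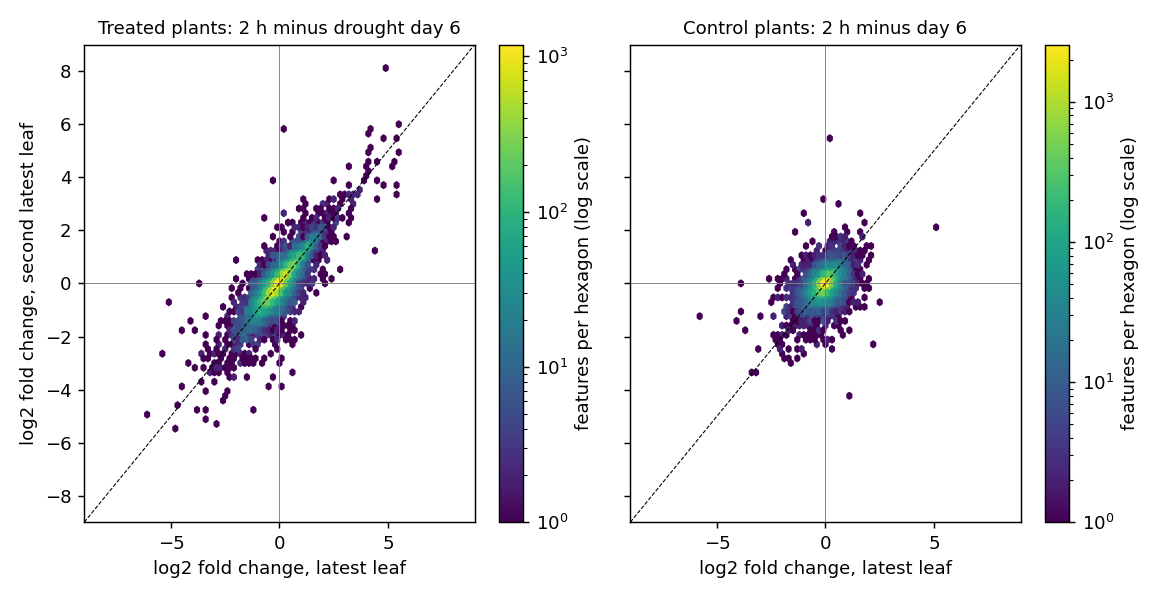
Fitted log2 fold change from day 6 to 2 h in the latest leaf (x axis) and the second latest leaf (y axis) for the 19346 features tested in both, with treated plants at left and control plants at right, the colour giving features per hexagon on a log scale and the dashed line marking equal change. Treated changes stretch along the dashed line (r = 0.85), and control changes form a smaller cloud around 0 (r = 0.43).

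A difference between the leaf positions was tested directly. The treated change of the latest leaf minus that of the second latest leaf gave 0 calls among 20553 features (0%) in edgeR and 0 in DESeq2. This fit takes no account of the pairing of same-numbered leaves. An unadjusted p under 0.05 was reached by 423 features, 2.06% of those tested, with a median standard error of 0.28 log2 units. With same-numbered leaves as a replicate block, 994 features reached it (4.84%), the median standard error was 0.21, and 0 features were called (smallest edgeR adjusted p = 0.136). Without the block and without the low-count filter 128 were called, 1 of them a feature that the filter removes. A fitted difference of at least 1 log2 unit was found for 830 features, none of which passed the test with the filter, and the absence of calls does not show that the leaves changed equally.

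The treated change was next set against the control change in 1 test. It differed from that of the controls for 2736 features in the latest leaf, 13.9% of those tested, of which 1608 moved higher than in controls (8.15%) and 1128 lower (5.72%). The second latest leaf had 2789 such features (14%), 1793 higher (9%) and 996 lower (5%). Of the features that had risen in treated leaves, 1550 in the latest leaf (56.5%) and 1736 in the second latest leaf (59.1%) were also called here. Of those that had fallen, 1017 (39.8%) and 923 (39.6%) were. The median standard error of this contrast was 0.25 and 0.27 log2 units, wider than for the treated change alone. Leaving out 1 library moved the count by more than 1.5 times in 4 cases. These gave 1708 without the rewatered replicate 2 and 1709 without drought day 6 replicate 1 in the latest leaf, and 1838 without drought day 6 replicate 1 and 1840 without the 2 h control replicate 2 in the second latest leaf.

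Most of these features were on one side of the irrigated leaves at drought day 6 and on the other side 2 h after rewatering. In the latest leaf, the features called higher had a median treated minus control difference of -0.36 log2 units at day 6 and 0.62 at 2 h, and 1496 of the 1608 had opposite signs at the 2 stages. Those called lower went from a median of 0.38 to -0.48, with opposite signs for 1014 of 1128. The corresponding medians in the second latest leaf were -0.17 and 0.86 for features called higher and 0.33 and -0.66 for those called lower, with opposite signs for 1377 of 1793 and 876 of 996. The same libraries chose these features, so the medians describe them and test nothing.

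The distance from the irrigated level at the 2 stages was counted as well, again in the libraries that chose the features and so as a description. Over all tested features 54.2% were farther from it at 2 h than at day 6 in the latest leaf and 60.7% in the second latest leaf. Of those called higher, 1119 of 1608 (69.6%) were farther in the latest leaf and 1554 of 1793 (86.7%) in the second latest leaf. Of those called lower, 631 of 1128 (55.9%) and 712 of 996 (71.5%) were. The others, 489 and 239 called higher and 497 and 284 called lower, were nearer to the irrigated level at 2 h.

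The same features were read at the other 4 stages, whose libraries took no part in their choice. The features were chosen for a large difference between day 6 and 2 h, so values nearer to 0 at the other stages are in part fixed by that choice, and the stages are set side by side as a description. At drought day 0 the treated minus control difference of the features called higher had a median of -0.29 log2 units in the latest leaf and -0.36 in the second latest leaf, and of those called lower 0.28 and 0.30. Both were on the side that they held at day 6, and in the second latest leaf the features called higher were farther from 0 than at day 6, where the median was -0.16. The treated minus control difference of the features called higher had a median of 0.23 log2 units at drought day 9 in the latest leaf, with quartiles of -0.12 and 0.54, and 0.07 in the second latest leaf. It was 0.66 and 0.89 at 2 h on the same scale of mean log2 CPM. By day 3 of rehydration it was -0.04 and -0.10, and by day 6 of rehydration -0.03 and -0.09. The features called lower had medians of 0.07 and 0.05 at drought day 9, -0.42 and -0.62 at 2 h, 0.02 and 0.06 at day 3 of rehydration and -0.08 and -0.06 at day 6 of rehydration. Over all tested features the medians at the 6 stages lay between -0.03 and 0.04. At day 9 the treated latest leaf had 2 usable libraries, since the library of replicate 2 held too few counts. Irrigated leaves had moved on that day too. Over the 2741 features that rose in the treated latest leaf, a list not the same as this one, irrigated latest leaves had a median of -0.23 log2 units from their own day 6. Their median at 2 h was -0.05, and treated latest leaves had 0.21 at day 9. The day 9 difference in the latest leaf can therefore hold a shift of the controls as well as of the treated leaves.

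**Figure D3:**
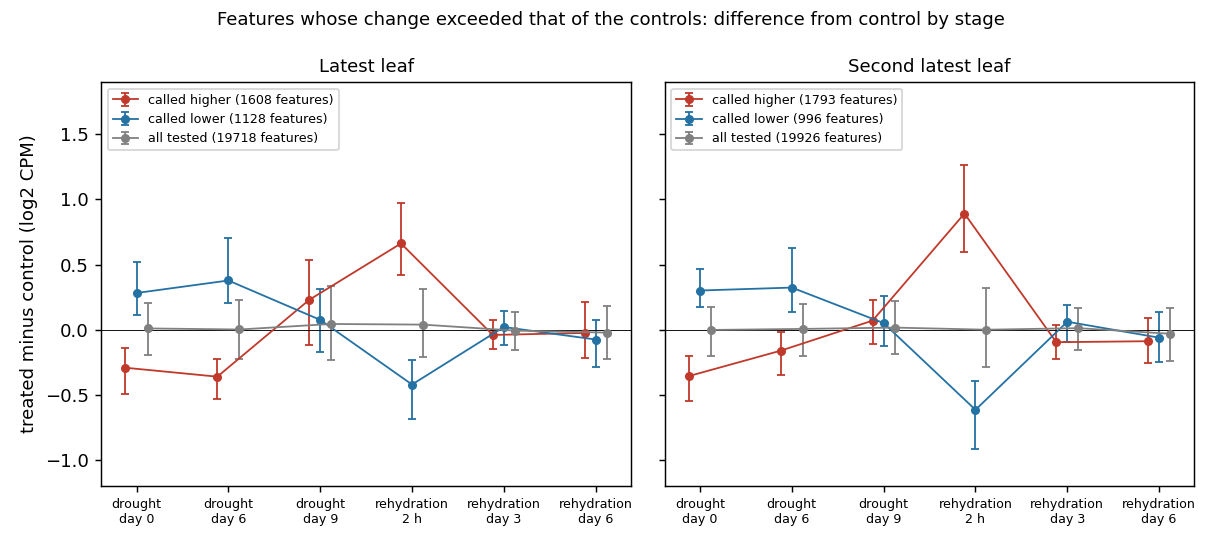
Treated minus control difference of mean log2 CPM at each of the 6 stages for features whose change from day 6 to 2 h was called higher (red) or lower (blue) than in controls and for all tested features (grey), as medians with quartiles over features, in the latest leaf (left) and second latest leaf (right). The libraries of day 6 and 2 h chose these features, which in part fixes that their medians are far from 0 at 2 h (0.66 and -0.42 in the latest and 0.89 and -0.62 in the second latest leaf); at drought day 0 the medians are on the day 6 side, at -0.29 and 0.28 and at -0.36 and 0.30.

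The course of the features that changed in treated leaves was followed library by library, each list being read in the leaf whose libraries had not chosen it. Same-numbered leaves deviate together, so these libraries are not fully independent of the choice. The features called higher in the latest leaf had per-library medians of 0.79, 0.79 and 0.83 log2 units above the treated day 6 mean in the 3 rewatered second latest leaves. Treated second latest leaves of drought day 9 had 0.14, 0.34 and -0.08, and irrigated ones at 2 h had 0.15, 0.04 and 0.03. The 3 rewatered libraries were thus above every one of these. In rewatered latest leaves the features called higher in the second latest leaf had medians of 0.70, 0.79 and 0.65. The 2 usable treated libraries of drought day 9 had 0.30 and 0.05, and irrigated latest leaves at 2 h had 0.25, 0.18 and 0.21, above the treated day 6 mean but below every rewatered library. Irrigated latest leaves of drought day 9 had 0.01, 0.08 and -0.05. The lists of lower features had medians of -0.56, -0.53 and -0.56 in the rewatered second latest leaves and -0.54, -0.61 and -0.53 in the rewatered latest leaves. At drought day 9 they were -0.10, -0.20 and 0.07 in the second latest leaf and -0.11 and 0.08 in the latest leaf, nearer to 0 in each library. Irrigated leaves at 2 h had -0.20, -0.06 and -0.08 in the second latest leaf and -0.32, -0.20 and -0.22 in the latest leaf.

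**Figure D4:**
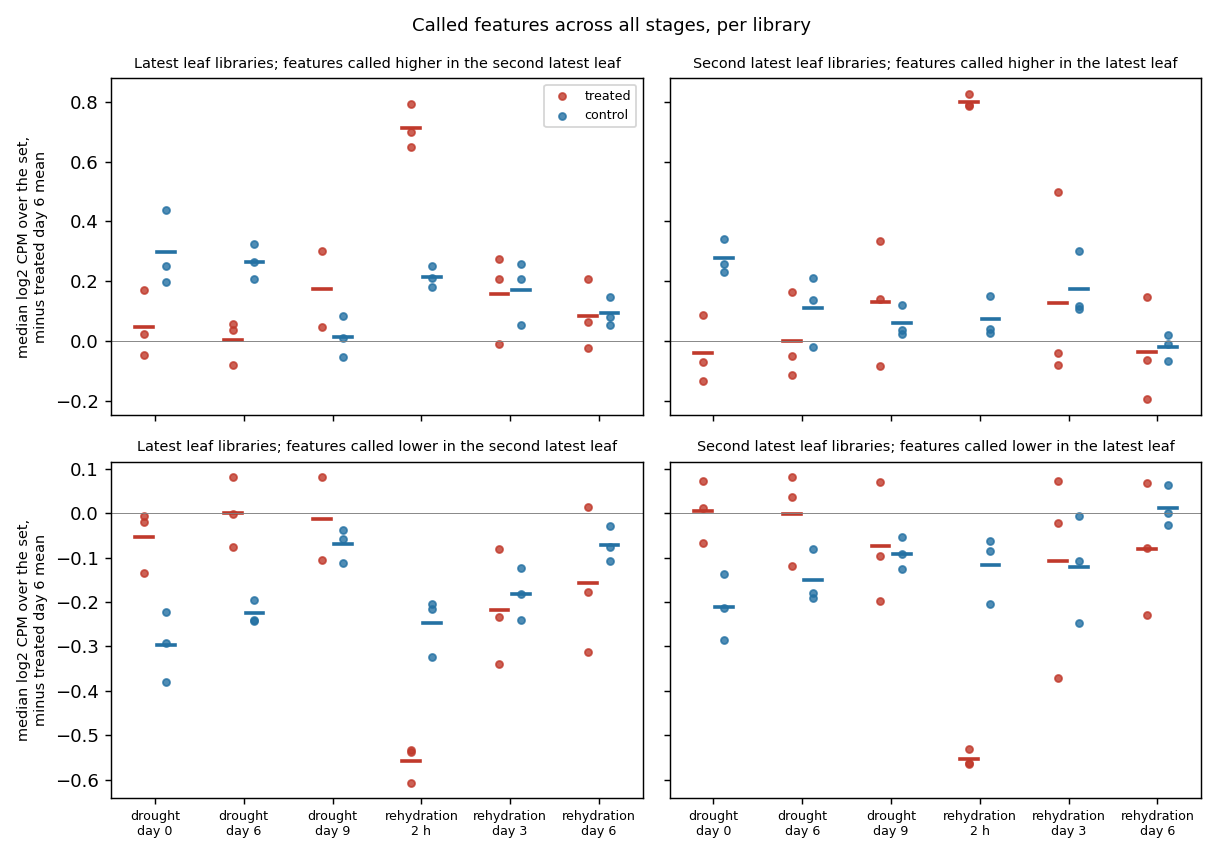
Median log2 CPM over each list of called features in every usable library, minus the treated day 6 mean of the same leaf, by stage (x axis), with treated libraries in red, controls in blue and bars at group means; each list comes from the leaf position not shown in its panel. Rewatered libraries are at 0.65 to 0.83 for the higher lists and at -0.61 to -0.53 for the lower lists, farther from 0 than the libraries of any other stage.

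The 4 named features were the top 2 in each direction among those called in both leaves, with a mean of at least 10 CPM at the higher stage in both leaves and without overlap between the day 6 and 2 h libraries in either leaf. They were ranked by the smaller of their fold changes in the 2 leaves. Of the 2266 features that rose in both leaves 2003 met these conditions, and of the 1554 that fell 1174 did. The same libraries gave the calls, so the lack of overlap is in part fixed by them and is no separate support. What these features encode could not be looked up.

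Feature 1806 had its highest levels after 2 h of rewatering. In the latest leaf it had 6.47, 12.5 and 8.49 CPM at day 6 and 558, 568 and 188 CPM at 2 h. The second latest leaf had 6.00, 5.10 and 9.14 CPM at day 6 and 681, 394 and 185 CPM at 2 h. Every rewatered library was above every day 6 library, and replicate 3 was the lowest rewatered library in both leaves. Its log2 fold change was 5.55 (SE 0.57, edgeR adjusted p = 2.73e-05) in the latest and 5.92 (SE 0.46, edgeR adjusted p = 1.42e-05) in the second latest leaf. Irrigated leaves had 3.51 to 16.5 CPM at day 6 and 3.58 to 11.7 CPM at 2 h, which overlapped. The treated change exceeded the control change by 5.82 and 5.35 log2 units (edgeR adjusted p = 0.000508 and 0.000716). Before watering resumed, at drought day 9, it already had a mean of 59.2 CPM in 2 treated latest leaves and of 49.2 ± 31.2 CPM in 3 treated second latest leaves, and irrigated leaves of that day had 107 ± 85.9 and 62.5 ± 28.4 CPM. At day 3 of rehydration it had 4.42 ± 1.67 and 8.03 ± 1.43 CPM in treated leaves. Irrigated leaves of that day had 5.34 ± 1.67 CPM in the latest and 33.8 ± 27.4 CPM in the second latest leaf.

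Feature 20184 was close to the limit of detection before rewatering. In the latest leaf it had 0, 0.692 and 0.548 CPM at day 6, from 0, 10 and 6 counts, and 19.5, 20.5 and 13.3 CPM at 2 h. The second latest leaf had 0.286, 0.277 and 1.09 CPM at day 6 and 37.0, 21.4 and 12.4 CPM at 2 h. The groups did not overlap in either leaf, and rewatered replicate 3 was again the lowest in both. The log2 fold changes were 5.39 (SE 0.51, edgeR adjusted p = 1.92e-05) and 5.37 (SE 0.64, edgeR adjusted p = 0.000116). Single day 6 libraries moved them by over 1.5 times: to 4.76 without replicate 1 and 6.11 without replicate 2 in the latest leaf, and to 6.31 without replicate 3 in the second latest leaf. Irrigated leaves had 0.495 to 2.88 CPM at day 6 and 0.564 to 2.62 CPM at 2 h. The treated change exceeded theirs by 4.16 and 5.70 log2 units (edgeR adjusted p = 0.00489 and 0.00243). Unlike feature 1806 it had no high mean at drought day 9, with 0.318 CPM in 2 treated latest leaves and 0.677 ± 0.0738 CPM in 3 treated second latest leaves.

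Feature 53199 was nearly absent 2 h after rewatering. In the latest leaf it had 53.5, 85.8 and 22.9 CPM at day 6 and 1.94, 0.198 and 0.305 CPM at 2 h. In the second latest leaf it had 87.2, 73.4 and 6.84 CPM at day 6 and 2.56, 2.24 and 0.553 CPM at 2 h. The rewatered libraries were below all day 6 libraries, with drought day 6 replicate 3 the lowest of its group in both leaves. The log2 fold changes were -6.05 (SE 0.81, edgeR adjusted p = 0.000166) and -4.99 (SE 0.97, edgeR adjusted p = 0.00253). Without the rewatered replicate 1 the value in the latest leaf was -7.72. This feature varied widely in irrigated leaves, from 25.5 to 238 CPM at day 6 and from 3.83 to 55.5 CPM at 2 h. Against the control change, the treated change was -4.42 log2 units in the latest leaf (edgeR adjusted p = 0.0113) and -3.78 in the second latest leaf, where the test was not passed (edgeR adjusted p = 0.0595). At day 3 of rehydration it had 8.12 ± 6.80 CPM in treated latest and 17.2 ± 19.6 CPM in treated second latest leaves. Irrigated leaves of that day had 21.6 ± 22.5 and 29.9 ± 24.2 CPM. At day 6 of rehydration it had 7.86 ± 1.32 CPM in treated latest and 1.12 ± 0.512 CPM in treated second latest leaves, beside 87.9 ± 20.4 and 6.63 ± 2.01 CPM in irrigated ones.

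Feature 19306 was high at drought day 6 and low 2 h after rewatering. In the latest leaf it had 52.1, 60.0 and 145 CPM at day 6 and 10.8, 4.02 and 5.18 CPM at 2 h. In the second latest leaf it had 68.8, 60.8 and 183 CPM at day 6 and 3.66, 4.10 and 4.58 CPM at 2 h. All day 6 libraries were above all rewatered ones, and drought day 6 replicate 3 was the highest in both leaves. The log2 fold changes were -3.72 (SE 0.54, edgeR adjusted p = 0.000282) and -4.70 (SE 0.54, edgeR adjusted p = 9.80e-05). Without drought day 6 replicate 3 they were -3.09 and -4.03. Irrigated leaves had 2.61 to 33.2 CPM at day 6 and 8.32 to 24.5 CPM at 2 h. The treated change exceeded theirs, at -3.67 and -4.55 log2 units relative to it (edgeR adjusted p = 0.00695 and 0.00170). The treated minus control difference was 3.23 (SE 0.53) and 2.22 (SE 0.47) log2 units at day 6 and -0.43 (SE 0.56) and -2.34 (SE 0.52) at 2 h. At drought day 9 the treated level was still 84.1 CPM in 2 latest leaves and 49.9 ± 28.8 CPM in 3 second latest leaves. Treated leaves were already above irrigated ones at drought day 0, with 18.3 ± 4.63 against 3.63 ± 0.768 CPM in the latest leaf and 49.8 ± 22.9 against 16.1 ± 4.07 CPM in the second latest leaf. At day 3 of rehydration treated leaves had 10.7 ± 4.97 and 40.6 ± 14.5 CPM, and irrigated ones 18.2 ± 5.13 and 53.8 ± 34.5 CPM.

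**Figure D5:**
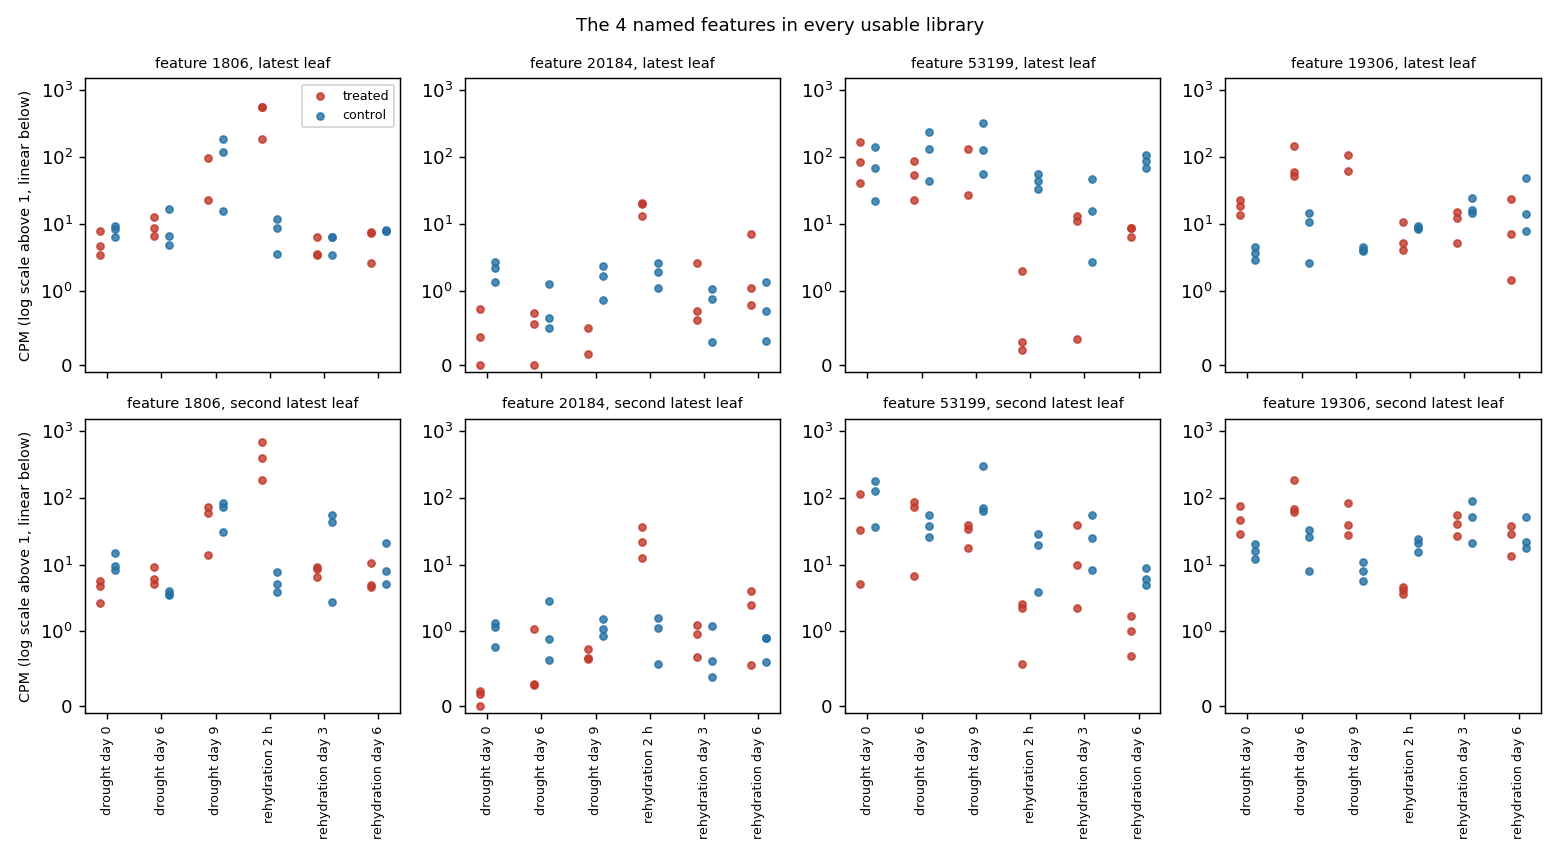
CPM of the 4 named features in every usable library by stage, on an axis that is logarithmic above 1 CPM and linear below, with treated libraries in red and controls in blue, latest leaf above and second latest leaf below. Features 1806 and 20184 have their highest treated values at 2 h, and features 53199 and 19306 fall between drought day 9 and 2 h.

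The 10 features that headed each ranking are described together. The 10 that rose had log2 fold changes of 4.10 to 5.55 in the latest leaf and 4.40 to 5.92 in the second latest leaf, and all 10 in each leaf were also called against the control change. At day 6, 1 of them was fitted above control in the latest leaf and 2 in the second latest leaf. At 2 h all 10 were above control in both leaves. The 10 that fell had log2 fold changes of -2.99 to -6.05 and of -2.90 to -5.17. At day 6, 8 of them were above control in the latest leaf and 10 in the second latest leaf, and at 2 h 0 were above control in either leaf. Against the control change, 10 of these were called in the latest leaf and 8 in the second latest leaf. Over all tested features 13.9% and 14% were called in either direction. The ranking used the treated change in these same libraries, so the counts for both groups of 10 are in part fixed by it. They describe the features and test nothing.

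Features next to each other in the table changed in the same direction slightly more often. Of the features that rose in the latest leaf, 18.0% were followed by a tested feature that also rose, beside 13.9% of all. Of those that fell, 17.3% were followed by one that fell, beside 13.0% of all. The second latest leaf had 17.7% beside 14.7% and 15.6% beside 11.7%. The correlation of fold changes between neighbours was 0.10 at 1 tested feature apart in both leaves, and 0.0069 and 0.0068 at 5 apart. The shares did not fall evenly with distance: at 20 tested features apart 15.3% of the features that rose in the latest leaf and 16.7% of those in the second latest leaf met another that rose, and at 100 apart 13.5% and 16.1% did. The order of the lines is not documented. Nearby lines could hold genes that share reads, which was not tested.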

How the data were processed

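The authors deposited 1 table of raw, unnormalised read counts, with 55986 lines and 72 library columns. Polyadenylated RNA was sequenced from directional libraries, per the labels' protocols. Per the submitters' processing notes, STAR was the aligner, featureCounts 2.0.0 the counter and IRGSP-1.0 the build. Which STAR version, annotation and strand setting were used is not given in the sources used here. Whether a feature shares reads with a near-identical copy or with an antisense partner was not resolved.

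The tests used edgeR 4.0.16 under R 4.3.3: filterByExpr, TMM scaling, and quasi-likelihood tests on the 12 libraries of each leaf position with 1 mean per group, or on 24 libraries for the difference between leaf positions. P-values were adjusted over all features tested, and the threshold was 0.05. DESeq2 1.42.0 served as an alternative. CPM used TMM factors over the libraries with at least 10000 counts, and log2 CPM a prior count of 2. The scripts were tested on simulated data.

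Features were named by the rule stated with them. The comparison, lists and rules were chosen with earlier results of these data known. Of 24 replicate pairs, 0 were identical, with a chi-square of at least 6.12 per degree of freedom. Same-numbered libraries of the 2 leaf positions deviated together in 12 of 12 cases (r 0.185 to 0.416), so the numbers in the labels pair the leaves, although the labels do not say that they came from 1 plant. Alternatives covered the scaling, the filter, the tool, the libraries fitted, a 2-fold minimum, a replicate block and each library left out.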

Additional observations from a re-analysis of the deposited data

Results flagged for a closer look

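The change from drought day 6 to 2 h after rewatering differed between treated and irrigated plants for 2736 features in the latest leaf and for 2789 in the second latest leaf. The difference itself was tested, as the treated change minus the control change within 1 fit (edgeR, adjusted p under 0.05).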

How the results depend on the processing

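Fold changes of the 4 named features kept their direction and stayed under the threshold in all 13 alternatives run for each leaf. With 1 library left out they ran (latest, then second latest leaf) from 5.32 to 5.91 and 5.38 to 6.29 (feature 1806), 4.76 to 6.11 and 4.88 to 6.31 (20184), -7.72 to -5.55 and -5.52 to -4.51 (53199), and -4.25 to -3.09 and -4.98 to -4.03 (19306). Requiring at least a 2-fold change lowered the treated counts to 1459 and 1718 (latest and second latest leaf), the counts beyond the control change to 1311 and 1482, and the count shared by both leaves from 3820 to 1047. Without the low-count filter the control comparisons gave 601 and 478 calls and the difference between leaf positions 128. DESeq2 gave 35 and 53 in controls. With each library left out in turn, the treated counts ran from 3522 to 4887 and from 3483 to 5176, those beyond the control change from 1708 to 3057 and from 1838 to 3185, the shared count from 2909 to 3799, controls from 0 to 1 in the latest leaf and from 0 to 0 in the second latest leaf, and the difference between leaves from 0 to 1. Why these moved was not tested. In the fit to all libraries of the latest leaf, the near-empty one included, 1929 features were called beyond the control change, 70.3% of them higher beside 58.8% in the 12-library fit.

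A replicate block gave 5092 and 5223 treated calls, 2531 and 2718 beyond the control change, 3737 shared, 0 between leaf positions, and 0 and 1 in controls. Same-numbered libraries of the 2 stages correlated above 0.1 in 6 of 12 cases (-0.0946 to 0.195). Differently numbered ones did so in 3 of 24 cases (-0.259 to 0.152). Whether the number pairs libraries across stages was not tested.

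Depth limits rare features: 3 counts equal 0.130 to 0.471 CPM. Lines without identifiers leave the changed genes unnamed, and the comparison joins the last days of drought with the first hours of water.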

Other observations

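The features whose change exceeded that of the controls were mostly on 1 side of the control level at drought day 0, in libraries that had no part in choosing them. Of those called higher, 9.64% of 1608 in the latest leaf and 4.68% of 1793 in the second latest leaf were above control on that day. Of those called lower, 87.9% of 1128 and 92.1% of 996 were. Over all tested features 51.4% and 49.6% were above control. Each group had 3 libraries. The labels do not say at which hour, or how long after the pots were raised, the day 0 leaves were taken.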
